A study of Capra hircus with 6 samples.

Results

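The kinesins described here are the 43 rows of a count table of 15944 goat genes whose identifier or gene symbol follows the KIF or KIFC naming pattern, and 36 of them had enough reads to be tested among 12588 genes. The naming pattern chose the rows, and they were sorted by textbook role, with earlier results of these data known, into 12 mitotic kinesins, 17 transport kinesins and 14 kinesins with other roles.

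RNA-seq was performed on primary cultures of dermal papilla cells from secondary hair follicles (SHF-DPCs) of wild-type Albas cashmere goats, a breed whose secondary follicles grow the cashmere fiber. The goats were 3 years old, and cells from passages 4 to 7 were used. The ATRA group (3 libraries) received all-trans retinoic acid, the vitamin A metabolite that binds retinoic acid receptors, at 100 µM for 24 h, and the Control group (3 libraries) received medium without ATRA. The methods of the study name 3 separate animals as the source of the cells, so control and ATRA libraries may share animals. The methods do not say whether same-numbered libraries do. All 6 libraries carry the same batch label.

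Kinesins are motor proteins that use ATP to move along microtubules. Transport kinesins carry vesicles, organelles and ciliary components, mostly toward the plus ends of microtubules. Mitotic kinesins build the spindle, move chromosomes and help to cut the daughter cells apart, and their genes are typically transcribed in the later part of the cell cycle. In hair follicles, dermal papilla cells are the mesenchymal cells that signal to the epithelium around them.

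Libraries held 35532339 to 38012771 counts, and the scaling factors of the trimmed mean of M-values (TMM) method were 0.842 to 0.851 in the controls and 1.16 to 1.20 in the ATRA-treated group. Levels are normalized CPM, the reads of a gene per 1000000 scaled reads of its library. Under the thresholds of the study, a gene was called where its log2 fold change (log2FC, ATRA over control) was beyond 1 in size and its unadjusted p was under 0.05. Among markers of dermal papilla cells, ACTA2 measured 6582 ± 462 CPM in the controls and 8.37 ± 0.829 CPM with ATRA (SD, n = 3), VCAN 1641 ± 63.6 and 32.4 ± 3.11 CPM, LEF1 16.1 ± 1.63 and 11.1 ± 0.978 CPM, and WIF1 2.87 ± 0.315 and 0.148 ± 0.0184 CPM, whereas PROM1, ALPL and CORIN were at or near 0 in both groups. Reads of ACTA2 may be shared with near-identical actin genes.

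Kinesin transcripts split by role. All 12 mitotic kinesins fell with ATRA, whereas of the 15 tested transport kinesins 1 was called lower and 2 higher, and the 9 tested others gave 2 lower and 3 higher. A gene could be tested with enough reads in 1 group alone. The rows KIF1A, LOC102186926 and LOC106503395 had enough only with ATRA, and KIF14, KIF18A, KIF18B and KIF2C only in the controls. The direction of these rows was therefore tied to the choice of tested genes. By an adjusted p under 0.05 alone, 6 transport kinesins were lower and 8 higher. With scaling by library size only, which moved the median log2FC of all genes to 0.52 and called 1471 genes lower and 3390 higher, 11 mitotic kinesins were lower, and 7 transport kinesins were called higher. When the mitotic class was taken instead from the GO terms in the table, an alternative chosen after seeing the data, 11 of its 14 tested members were called lower, and KIF2A, KIF3B and KIF13A were not called. The median log2FC was -5.03 for the mitotic kinesins, 0.38 for the transport kinesins and -0.12 for the others, against 0.04 over all tested genes. In total, 15 of the 36 tested kinesins (41.7%) were called lower and 5 (13.9%) higher, and of all tested genes 17.3% were called lower and 13.7% higher. By an adjusted p alone, under 0.05 (edgeR's quasi-likelihood test, Benjamini-Hochberg), 21 kinesins were lower and 11 higher, against 38.7% and 40.9% of all tested genes. The 3 ATRA libraries lay below the 3 controls for 23 kinesins and above them for 11, and over all tested genes these shares were 39.0% and 41.2%. In bulk RNA, fewer cells of a kind and less RNA per cell cannot be told apart.

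**Figure D1:**
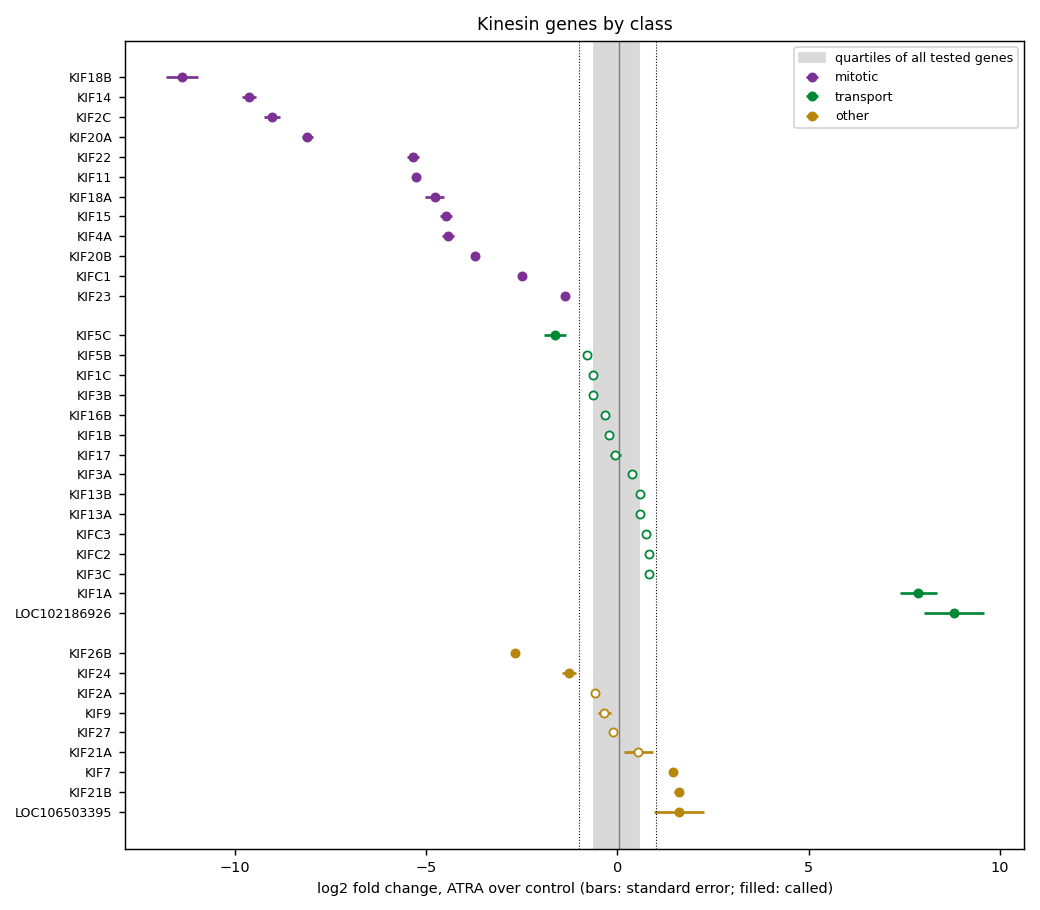
Log2 fold change (ATRA over control, horizontal axis) of the 36 tested kinesins by class, with standard errors; filled points were called, the dotted lines mark a log2FC of 1 in either direction, and the grey band runs between the quartiles of all tested genes, with their median as a line. The 12 mitotic kinesins lie left of the dotted line at -1, and most transport kinesins lie between the dotted lines.

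The kinesins that assemble the bipolar spindle were examined first. KIF11, the tetrameric motor that slides antiparallel microtubules to push the spindle poles apart, measured 61.7, 64.2 and 62.2 CPM in Control 1, 2 and 3 and 1.64, 1.79 and 1.43 CPM in ATRA 1, 2 and 3. KIF15, which can take over part of that task, measured 14.2, 13.0 and 14.4 CPM in the controls and 0.578, 0.522 and 0.773 CPM with ATRA. For both genes, every ATRA library was far below every control, with log2FC of -5.27 (SE 0.0990, adjusted p = 7.53e-19) and -4.47 (SE 0.161, adjusted p = 9.25e-15). KIFC1 is a minus-end-directed motor that focuses spindle poles. It measured 33.4, 36.4 and 31.2 CPM in the controls and 5.99, 6.08 and 5.75 CPM with ATRA, and its log2FC of -2.50 (SE 0.0916, adjusted p = 1.24e-14) was smaller than those of KIF11 and KIF15. The groups did not overlap for any of these genes.

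The kinesins that move chromosomes or shorten microtubule ends fell further in several cases. KIF18B, which trims astral microtubules, had 271, 263 and 321 reads in the controls and 0 reads in all 3 ATRA libraries. Against a floor of 3 counts per library (0.0700 CPM), it was at least 128-fold lower with ATRA. KIF2C, the centromeric depolymerase that corrects faulty kinetochore attachments, had 712, 685 and 714 reads in the controls and 2, 2 and 1 reads with ATRA. The ratio of its levels, control over ATRA, was 569 (95% counting interval 243 to 1750), and its fitted log2FC was -9.03 (SE 0.207, adjusted p = 1.11e-17). The control means were 8.95 ± 0.951 CPM for KIF18B and 22.1 ± 0.887 CPM for KIF2C, and no ATRA library held more than 2 reads of either gene. The counting intervals and floors cover counting error only.

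KIF22, a chromokinesin that pushes chromosome arms away from the poles, measured 28.2, 26.7 and 28.0 CPM in the controls and 0.578, 0.544 and 0.918 CPM with ATRA. KIF18A, which damps the oscillation of chromosomes at the metaphase plate, measured 7.12, 6.80 and 8.16 CPM in the controls and 0.347, 0.113 and 0.338 CPM with ATRA. Both dropped to under 4% of their control means (2.46% for KIF22 and 3.62% for KIF18A), with log2FC of -5.34 (SE 0.144) and -4.78 (SE 0.250). The row KIF4A, a chromokinesin that also organizes the central spindle with PRC1, measured 28.0, 24.7 and 26.7 CPM in the controls and 1.76, 0.907 and 1.04 CPM with ATRA (log2FC -4.42, SE 0.158, adjusted p = 1.65e-14). The table gives this row the symbol KIF4B, a near-identical copy in other mammals, so which of these genes its reads came from is uncertain. ATRA 1 held more KIF4A reads (76) than ATRA 2 (40) or ATRA 3 (43), and all 3 stayed far under the controls (800 to 870 reads).

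The kinesins of cytokinesis fell by very different amounts. KIF14, which brings citron kinase to the midbody, had 1001, 1079 and 1113 reads in the controls and 2, 1 and 2 reads with ATRA. Its ratio of levels, control over ATRA, was 861 (95% counting interval 368 to 2650), and its fitted log2FC was -9.63 (SE 0.187, adjusted p = 1.14e-18). KIF20A, which carries the chromosomal passenger complex to the spindle midzone, measured 103, 95.1 and 93.8 CPM in the controls and 0.255, 0.272 and 0.532 CPM with ATRA. ATRA 3 was the highest of the treated libraries for KIF20A, yet its level was below 1 CPM, and the log2FC was -8.11 (SE 0.137, adjusted p = 1.94e-19). KIF20B, a midzone motor of late cytokinesis from the same kinesin-6 family, measured 41.6, 44.5 and 42.8 CPM in the controls and 3.45, 3.24 and 3.07 CPM with ATRA (log2FC -3.72, SE 0.0920).

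KIF23 was the member of the mitotic class that kept the most of its level. This subunit of centralspindlin, the complex that marks the division plane together with RACGAP1, measured 64.8, 67.2 and 66.3 CPM in the controls and 25.4, 25.7 and 25.5 CPM with ATRA. The ATRA-treated cells held 38.6% of the control mean, with a log2FC of -1.37 (SE 0.0652, adjusted p = 6.66e-13) and no overlap between the groups. With scaling by library size only, its log2FC was -0.89, which does not pass the threshold of the study. The 3 kinesin-6 genes KIF20A, KIF20B and KIF23 had log2FC of -8.11, -3.72 and -1.37, with standard errors from 0.0652 to 0.137.

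**Figure D2:**
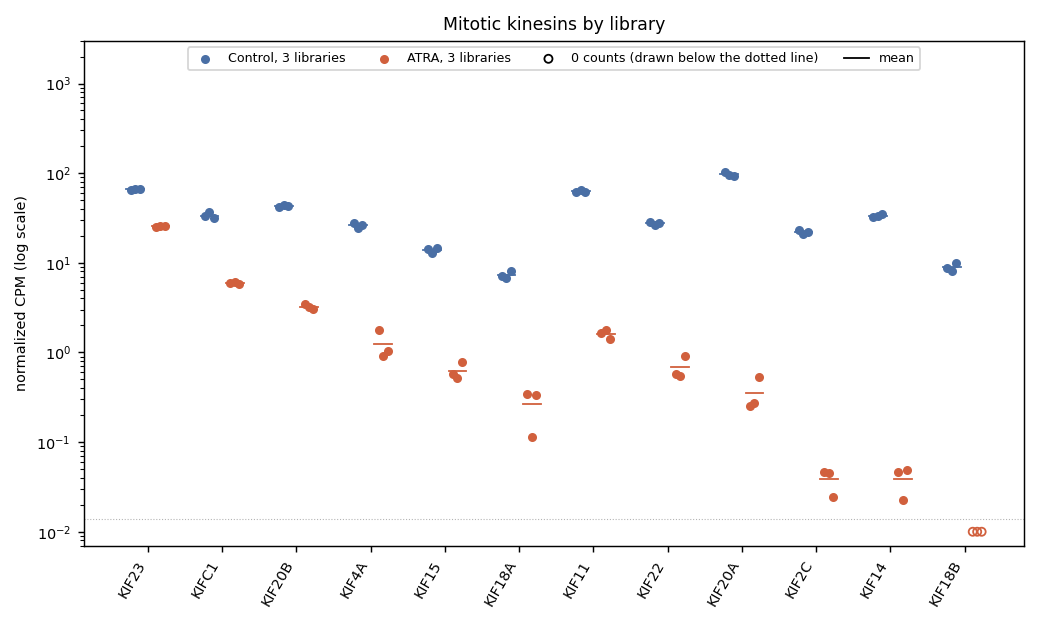
Normalized CPM (vertical, log scale) of the 12 mitotic kinesins in each of the 3 control and 3 ATRA libraries, with group means as lines and libraries at 0 counts as open circles under the dotted line. Genes are ordered by log2 fold change from KIF23 (-1.37) on the left to KIF18B (0 reads in each ATRA library) on the right, and no gene's groups overlap.

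Within a library, the share of a gene among kinesin reads does not depend on the scaling factors. Mitotic kinesins took 23.2%, 22.7% and 22.1% of all kinesin reads in Control 1, 2 and 3 and 3.12%, 2.84% and 2.93% in ATRA 1, 2 and 3. The summed level of the mitotic kinesins was 443 ± 3.22 CPM in the controls and 39.6 ± 0.446 CPM with ATRA, and the summed levels of the transport kinesins (1207 ± 22.8 and 1034 ± 40.8 CPM) and of the others (303 ± 12.9 and 263 ± 8.91 CPM) were also lower with ATRA. Per 1000000 reads without TMM scaling, the transport sum was instead higher with ATRA (1022 ± 22.9 and 1220 ± 57.4), as was that of the others (257 ± 11.9 and 311 ± 12.6), whereas the mitotic sum was lower on both scales (375 ± 1.02 and 46.7 ± 0.744 without scaling). The direction of the transport and other sums therefore depends on the scaling, and their shares below do not settle it. Transport kinesins took 61.8% ± 0.121 of kinesin reads in the controls and 77.3% ± 0.208 with ATRA, and the others took 15.5% ± 0.398 and 19.7% ± 0.0822 (SD, n = 3, no test was made of shares). All kinesins together took 1654 ± 33.9 of each 1000000 reads in the controls and 1578 ± 69.9 with ATRA.

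The make-up of the mitotic reads also differed between the groups. KIF23 took 14.5%, 15.2% and 15.1% of mitotic kinesin reads in the controls and 63.4%, 65.5% and 64.7% with ATRA, and KIFC1 went from 7.61% ± 0.591 to 15.0% ± 0.439. KIF20A went from 22.0% ± 1.02 to 0.892% ± 0.397 and KIF11 from 14.2% ± 0.359 to 4.09% ± 0.471, whereas KIF20B took 9.70% ± 0.385 and 8.22% ± 0.405. The ratio of KIF23 to KIF11 reads was 1.05, 1.05 and 1.07 in the controls and 15.5, 14.4 and 17.9 with ATRA. Gene lengths cancel in such a change between groups, but not in the order of genes within a library.

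**Figure D3:**
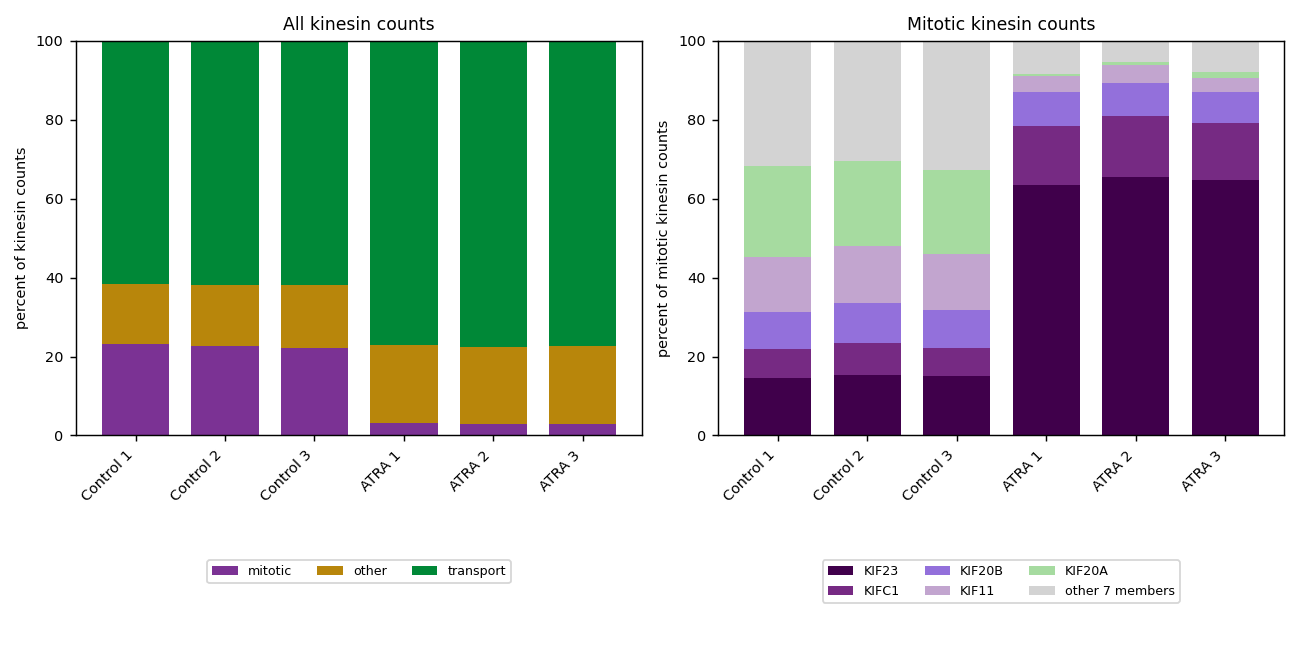
Left, percent of all kinesin reads taken by mitotic, other and transport kinesins in each library; right, percent of mitotic kinesin reads taken by 5 members and by the other 7 together. Mitotic kinesins fill 22.1% to 23.2% of the control bars and 2.84% to 3.12% of the ATRA bars, and KIF23 fills 63.4% to 65.5% of the mitotic reads with ATRA.

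Among transport kinesins, the kinesin-1 heavy chains carry mitochondria, vesicles and other cargo together with kinesin light chains. KIF5B, the ubiquitous heavy chain, measured 320, 347 and 345 CPM in the controls and 174, 221 and 187 CPM with ATRA. Its groups did not overlap, and its log2FC of -0.80 (SE 0.0737, adjusted p = 1.72e-08) stayed within the threshold of the study, as did -0.32 with library size only. KIF5C, a heavy chain best known from neurons, measured 1.35, 1.33 and 1.46 CPM in the controls and 0.578, 0.317 and 0.435 CPM with ATRA. It was the transport kinesin called lower (log2FC -1.63, SE 0.295, adjusted p = 6.10e-05), from 42 to 47 reads per control library to 14 to 25 with ATRA. On the log2(CPM + 1) scale with R's t.test function, its difference was -0.73 and it was not called. KIF5A, the other neuronal heavy chain, had 3 reads or fewer in each library of both groups. KIF5B took 99.6% ± 0.0264 of kinesin-1 reads in the controls and 99.7% ± 0.0903 with ATRA.

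Kinesin-2 motors drive cargo into primary cilia and along cytoplasmic tracks, and KIF3A pairs with either KIF3B or KIF3C. KIF3C measured 55.0, 55.1 and 59.3 CPM in the controls and 98.2, 102 and 102 CPM with ATRA, and KIF3B measured 70.1, 76.0 and 69.7 CPM in the controls and 43.7, 48.8 and 46.6 CPM with ATRA. KIF3C was higher (log2FC 0.84, SE 0.0605, adjusted p = 3.60e-10) and KIF3B lower (log2FC -0.63, SE 0.0668, adjusted p = 7.87e-08), both without overlap and both within the threshold on the fold, although with library size only KIF3B was at -0.15. The shared partner KIF3A measured 26.6, 28.5 and 27.0 CPM in the controls and 35.1, 39.1 and 32.4 CPM with ATRA (log2FC 0.38, SE 0.0803, adjusted p = 3.31e-04). The ratio of KIF3C to KIF3B reads, which no scaling factor touches, was 0.785, 0.726 and 0.851 in the controls and 2.25, 2.10 and 2.19 with ATRA. KIF17, the homodimeric kinesin-2, overlapped between the groups (4.67 ± 0.404 against 4.48 ± 0.404 CPM, log2FC -0.06, adjusted p = 0.706), and its sign turned with upper-quartile scaling or library size only.

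Kinesin-3 motors move vesicles over long distances. KIF1C, which carries integrin-containing vesicles, measured 353, 329 and 347 CPM in the controls and 222, 210 and 228 CPM with ATRA (log2FC -0.64, SE 0.0566, adjusted p = 6.64e-09; -0.16 with library size only). KIF1B, a carrier of mitochondria and synaptic vesicle precursors, measured 193, 192 and 205 CPM in the controls and 153, 182 and 172 CPM with ATRA. Its log2FC was -0.22 (SE 0.0642, adjusted p = 5.07e-03), and that of KIF16B, an early endosome motor, was -0.32 (SE 0.0897, adjusted p = 3.66e-03); with library size only, both turned to values above 0 (0.26 and 0.16). KIF13A, a motor of recycling endosomes, rose from 42.7 ± 3.08 to 64.8 ± 3.88 CPM (log2FC 0.60, adjusted p = 4.01e-07), and its relative KIF13B rose from 29.3 ± 2.19 to 43.8 ± 2.96 CPM (log2FC 0.58, adjusted p = 1.89e-06). Neither passed the threshold on the fold.

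KIF1A, the axonal carrier of synaptic vesicle precursors, was the transport gene called higher. The row KIF1A had 1, 0 and 0 reads in the controls and 131, 144 and 140 reads with ATRA, or 3.23 ± 0.179 CPM, a ratio of ATRA over control of 308 (95% counting interval 55.0 to 12200) and a fitted log2FC of 7.87 (SE 0.485, adjusted p = 3.40e-11). The row LOC102186926, which carries the same symbol, had 0 reads in each control and 53, 78 and 60 reads with ATRA, and was at least 15.7-fold higher against 3 counts per library. LOC108634907, also with this symbol, had 0, 0 and 1 reads in the controls and 19, 4 and 5 with ATRA (ratio 20.8, interval 3.44 to 850) and was not tested. Whether these 3 rows are pieces or copies of 1 gene, and how reads were divided among them, is uncertain, so both transport calls in the upward direction may rest on a single gene. Both called rows had enough reads to be tested only with ATRA.

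Of the neuronal markers examined beside KIF1A, SNAP25 measured 9.00 ± 1.35 CPM in the controls and 32.7 ± 2.48 CPM with ATRA, and SYT1 measured 0.116 ± 0.0393 CPM in the controls and had 0 reads with ATRA. RBFOX3 and STMN2 had no row. The part of these markers in the KIF1A result was not tested.

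The minus-end-directed kinesin-14 family holds both a mitotic and 2 transport members. KIFC3, a motor of the Golgi and of cell junctions, measured 56.2, 58.6 and 56.1 CPM in the controls and 97.6, 93.3 and 96.8 CPM with ATRA (log2FC 0.75, SE 0.0592, adjusted p = 1.29e-09). KIFC2, best known from neuronal transport, measured 23.0, 22.1 and 23.4 CPM in the controls and 43.0, 37.0 and 41.8 CPM with ATRA (log2FC 0.83, SE 0.0777, adjusted p = 1.54e-08). Both were higher in each ATRA library than in any control, and their mitotic relative KIFC1 was lower in each. KIFC1 accordingly took 29.7% ± 1.45 of kinesin-14 reads in the controls and 4.18% ± 0.247 with ATRA, while the ratio of KIFC3 to KIFC1 reads went from 1.70 ± 0.0938 to 16.2 ± 0.745 (SD, n = 3).

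**Figure D4:**
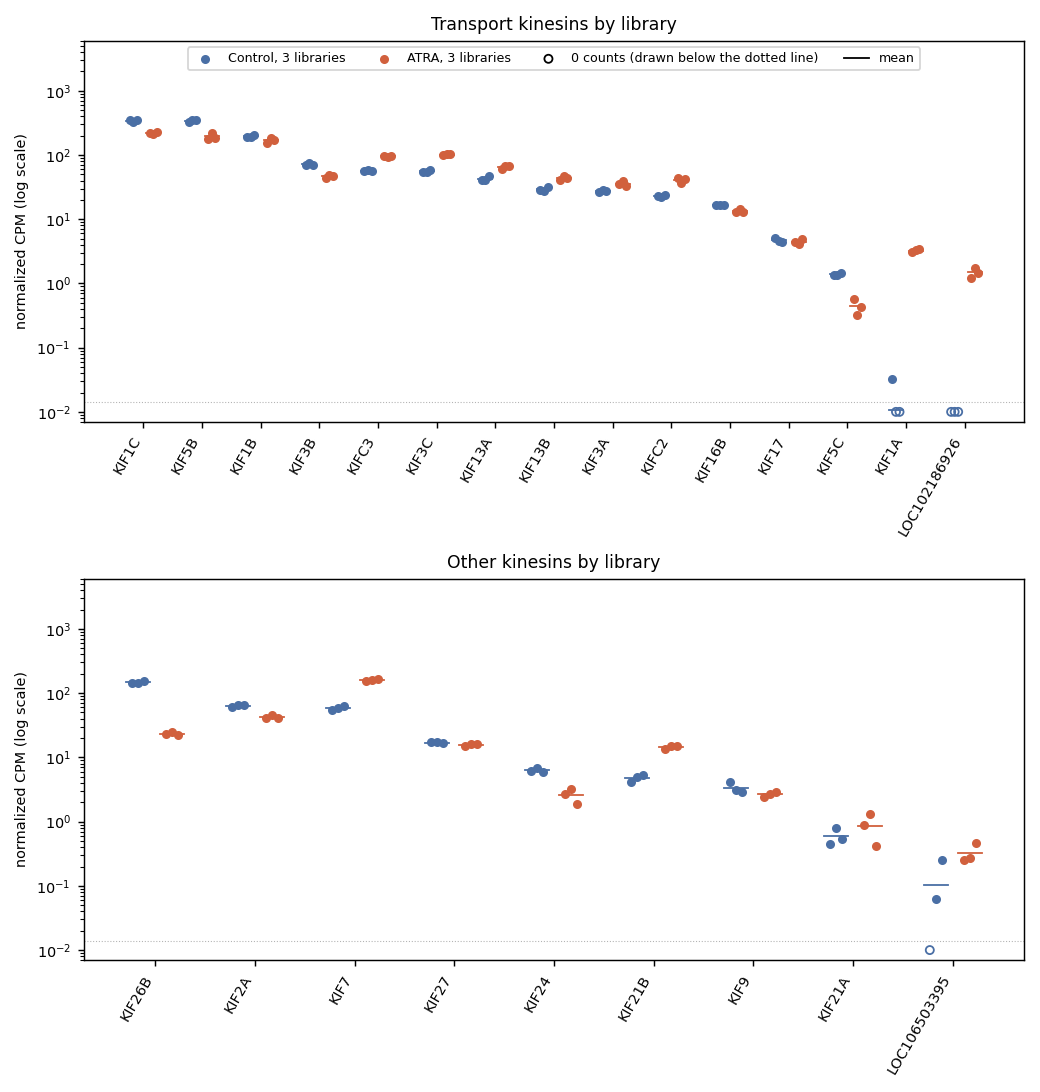
Normalized CPM (vertical, log scale) of the 15 tested transport kinesins (top) and the 9 tested other kinesins (bottom) in each of the 3 control and 3 ATRA libraries, with group means as lines and 0 counts as open circles. KIF1A and LOC102186926 appear with ATRA from at or near 0 reads, KIF26B drops from 148 to 23.3 CPM, and KIF7 climbs from 58.5 to 161 CPM.

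Among kinesins with other roles, KIF26B gave the largest fall. It belongs to the kinesin-11 family, whose motor domain lacks usual ATPase activity, and acts in noncanonical Wnt signaling and cell adhesion. It measured 145, 144 and 157 CPM in the controls and 22.7, 24.8 and 22.2 CPM with ATRA, a log2FC of -2.67 (SE 0.0679, adjusted p = 5.13e-17) with no overlap. A row with the symbol of its relative KIF26A, LOC106503395, had 0, 2 and 8 reads in the controls and 11, 12 and 19 with ATRA (log2FC 1.61, SE 0.663, adjusted p = 0.0332). Its call was lost without Control 1 (log2FC 1.05), Control 2 (1.34) or ATRA 3 (1.30), with DESeq2 (1.64) and with R's t.test function. The row KIF26A itself had 1 read in total.

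KIF7 and KIF27 are relatives of Drosophila Costal-2, and KIF7 organizes the tip of the primary cilium, where it controls Hedgehog signaling. KIF7 measured 54.5, 57.7 and 63.3 CPM in the controls and 155, 163 and 166 CPM with ATRA (log2FC 1.46, SE 0.0647, adjusted p = 2.27e-13). All 3 ATRA libraries were well above all 3 controls. KIF27 measured 17.0 ± 0.411 CPM in the controls and 15.7 ± 0.646 CPM with ATRA, and its log2FC of -0.12 did not pass the test (adjusted p = 0.207). KIF24, a centriolar kinesin that restrains cilium formation in dividing cells, fell from 6.06, 6.86 and 5.82 CPM to 2.71, 3.20 and 1.88 CPM (log2FC -1.26, SE 0.174, adjusted p = 2.63e-06); with library size only its log2FC was -0.78, within the threshold.

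KIF21B, which limits microtubule growth, measured 4.09, 4.92 and 5.32 CPM in the controls and 13.7, 14.8 and 15.2 CPM with ATRA (log2FC 1.60, SE 0.116, adjusted p = 3.93e-10). Its paralog KIF21A overlapped between the groups (0.595 ± 0.185 against 0.868 ± 0.452 CPM, log2FC 0.55, adjusted p = 0.201). KIF2A, a microtubule depolymerase of the same kinesin-13 family as KIF2C and KIF24, measured 63.7 ± 3.00 CPM in the controls and 42.4 ± 2.19 CPM with ATRA (log2FC -0.59, adjusted p = 2.53e-07). With library size only, its log2FC was -0.11 and did not pass the test. KIF9, a kinesin of motile cilia, gave a log2FC of -0.34 that did not pass the test (adjusted p = 0.0900). The rows KIF12, KIF25, KIF26A, LOC102169725 (symbol KIF19) and LOC108633438 (symbol KIF6) had 3 reads or fewer in each library and were not tested.

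The partners of the mitotic kinesins were read from a separate list of 12 genes. Of these, 11 were called lower and 0 higher (10 lower with library size only), against 17.3% and 13.7% of all tested genes, and with no threshold on the fold all 12 passed an adjusted p of 0.05, with a median log2FC of -4.47. AURKB, the kinase of the chromosomal passenger complex that KIF20A carries, fell from 15.9 ± 1.67 to 0.0626 ± 0.0371 CPM (log2FC -7.92, SE 0.238), and CDCA8 of the same complex had a log2FC of -5.48. BIRC5 and INCENP, also of this complex, had log2FC of -5.01 and -1.27, and INCENP kept 41.3% of its control mean. AURKB had 552, 481 and 479 reads in the controls and 1, 3 and 4 reads with ATRA. It had enough reads to be tested only in the controls, so the direction of its call was tied to the choice of tested genes. PRC1, the microtubule bundler to which KIF4A binds, fell from 85.2 ± 5.28 to 1.51 ± 0.246 CPM (log2FC -5.81, SE 0.107). RACGAP1, the other subunit of centralspindlin, went from 89.4 ± 1.81 to 28.5 ± 0.841 CPM (log2FC -1.65, SE 0.0634), beside -1.37 for KIF23. MAPRE1, a plus-end binding protein used throughout the cell cycle, had a log2FC of -0.58 (adjusted p = 2.47e-08), within the threshold on the fold. CENPE, also on this list, is itself a mitotic kinesin whose symbol lies outside the KIF naming pattern. It was called lower, with a log2FC of -4.39 (SE 0.0968).

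The light chains and cargo adaptors of transport kinesins gave 0 genes called lower and 4 higher of 14 tested, against 17.3% and 13.7% of all tested genes. With an adjusted p alone 2 were lower and 7 higher, against 38.7% and 40.9% of all tested genes, and with library size only these were 1 and 13, with TRAK1 and SPAG9 turned in sign. KLC2, a kinesin light chain, rose from 20.9 ± 1.30 to 65.8 ± 1.74 CPM (log2FC 1.65, SE 0.0718, adjusted p = 1.69e-13), and KLC4 from 23.1 ± 1.32 to 50.0 ± 2.69 CPM (log2FC 1.11, SE 0.0750). The scaffolds MAPK8IP2 and MAPK8IP3, which link kinesin-1 to vesicles, had log2FC of 1.75 (SE 0.130) and 1.20 (SE 0.0695). KIFAP3, the adaptor of the KIF3 motors, overlapped between the groups (90.0 ± 4.35 and 95.3 ± 2.31 CPM, adjusted p = 0.200). MAP7D1, a microtubule protein that recruits kinesin-1, had a log2FC of -0.89 (SE 0.0568, adjusted p = 5.59e-11), within the threshold. KLC1 had no row, and KLC3 and MAP7 were not tested.

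Cytoplasmic dynein, which moves cargo the opposite way with its activator dynactin, had 4 genes called lower and 0 higher of 20 tested, against 17.3% and 13.7% of all tested genes. With an adjusted p alone 13 were lower and 4 higher, against 38.7% and 40.9%. With library size only, 1 was called lower and 1 higher, and 4 genes turned sign (DYNLL2, DCTN3, DCTN4 and BICD2). NDE1, a dynein regulator with roles in mitosis, fell from 59.8 ± 1.93 to 8.67 ± 0.659 CPM (log2FC -2.78, SE 0.0809), whereas its paralog NDEL1 went from 77.9 ± 2.69 to 137 ± 2.90 CPM (log2FC 0.81, SE 0.0569, adjusted p = 2.36e-10). DCTN1, the largest dynactin subunit, fell from 295 ± 8.42 to 130 ± 4.04 CPM (log2FC -1.18, SE 0.0546), and BICD1, a dynein adaptor, and DCTN5 had log2FC of -1.11 and -1.10. The heavy chain DYNC1H1 overlapped between the groups (adjusted p = 0.192).

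Intraflagellar transport particles are the cargo trains that kinesin-2 pulls into cilia. Of 14 genes tested, 1 was called lower, IFT81 (29.3 ± 0.421 to 10.9 ± 0.579 CPM, log2FC -1.43, SE 0.0820), and 0 higher, against 17.3% and 13.7% of all tested genes. An adjusted p alone gave 2 lower and 8 higher, against 38.7% and 40.9% of all tested genes, and the median log2FC was 0.32. With library size only, the IFT81 call was lost, 4 genes were called higher, an adjusted p alone gave 1 lower and 13 higher, and 3 genes turned sign (IFT27, IFT52 and IFT80). Markers of multiciliated cells (FOXJ1, TEKT1 and DNAI1) summed to 0.0644 to 0.309 CPM in the controls and 0.0227 to 0.0967 CPM with ATRA.

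Alpha and beta tubulins form the track itself, and the list also held TUBG1, a gamma tubulin. Of 11 genes, 5 were called lower and 1 higher, against 17.3% and 13.7% of all tested genes. An adjusted p alone gave 8 lower and 1 higher, against 38.7% and 40.9% of all tested genes. With library size only these were 8 and 3, and the median log2FC moved from -0.80 to -0.33. TUBB6 went from 756 ± 50.5 to 84.3 ± 5.99 CPM (log2FC -3.16, SE 0.0714), TUBA1A from 458 ± 16.5 to 92.0 ± 1.92 CPM (log2FC -2.32, SE 0.0571) and TUBB from 1857 ± 101 to 478 ± 12.6 CPM (log2FC -1.96, SE 0.0612). TUBA4A, at 0.231 ± 0.0843 and 0.673 ± 0.234 CPM, was the tubulin called higher (log2FC 1.53, SE 0.422, adjusted p = 3.00e-03), and this call was lost with R's t.test function, while a filter of at least 1 CPM in 3 libraries removed the gene. TUBA4A had 10, 7 and 5 reads in the controls and 28, 20 and 38 reads with ATRA. It had enough reads to be tested only with ATRA, so the direction of its call was tied to the choice of tested genes. Genes within the alpha or within the beta tubulin group are close in coding sequence, so the division of reads within each group is uncertain.

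**Figure D5:**
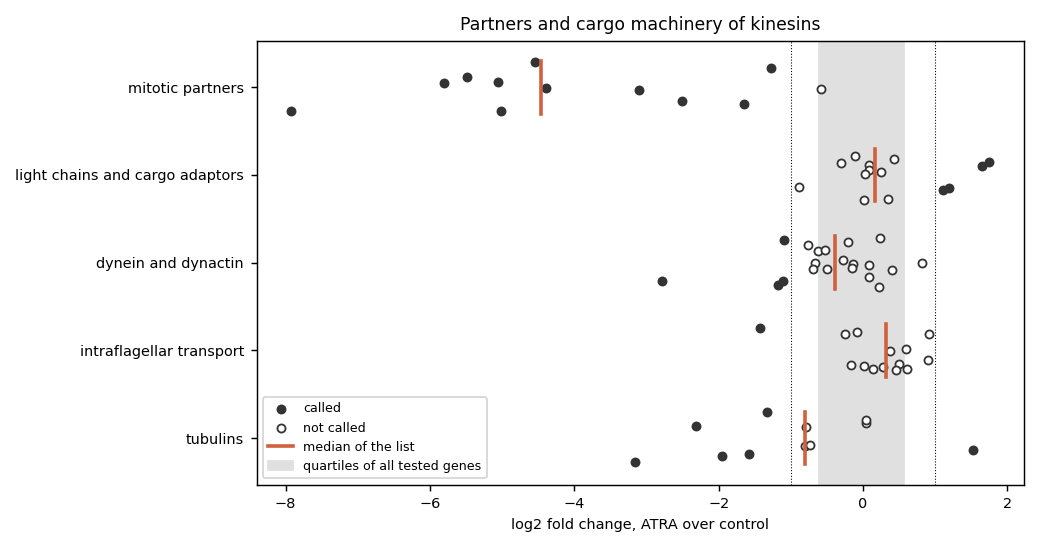
Log2 fold change (ATRA over control, horizontal axis) of each tested gene in 5 lists of kinesin partners and related machinery, with called genes filled, list medians as vertical strokes and the span between the quartiles of all tested genes as a grey band; vertical jitter separates points only. The mitotic partners have a median of -4.47, the light chains and cargo adaptors 0.17, dynein and dynactin -0.39, intraflagellar transport 0.32 and the tubulins -0.80.

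Markers of other cell types were measured beside these results. The summed level of 5 keratinocyte markers was 0.405 to 0.741 CPM in the controls and 0.0967 to 0.139 CPM with ATRA, with CDH1 at 0 in the controls. The 2 melanocyte markers with a row went from 3.80 to 4.30 CPM in the controls to 1.97 to 2.34 CPM with ATRA. Endothelial markers summed to 0.903 to 1.24 CPM in the controls and 6.19 to 9.16 CPM with ATRA, mostly through PECAM1 (0 and 6.10 ± 1.43 CPM). Of the others, TEK was 0.619 in the controls and 1.13 CPM with ATRA, and VWF 0.229 and 0.241 CPM. KDR went the other way, from 0.219 to 0.0230 CPM, and CDH5 was at or near 0 in both groups. The 4 leukocyte markers with a row summed to 9.24 to 12.9 CPM in the controls and 41.3 to 44.2 CPM with ATRA, mainly CD14 and CD68. The other members were near 0, with CSF1R at 0.126 in the controls and 0.117 CPM with ATRA, and CD3E at 0.0211 and 0.0774 CPM. PTPRC had no row. The part of these cell type markers in the kinesin results was not tested.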

How the data were processed

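Poly(A) RNA of 6 cultures was sequenced. Reads were cleaned by the authors (fastp, TrimGalore), who deposited a table of whole-number read counts for each gene, without normalization, beside annotation columns. The submitters' processing notes name HISAT2, featureCounts and DESeq2. The genome build, annotation and strand setting are not given in the sources used here. Members were rows whose identifier (38) or symbol only (5) matched the naming rule, and all 43 identifiers were found as symbols in the RefSeq gene table (ARS1.2). No coordinates were used.

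Genes passing edgeR's filterByExpr (12588) received TMM factors and entered a robust, two-sided quasi-likelihood test in edgeR on all 6 libraries without covariates, with Benjamini-Hochberg adjustment over all tested genes. R's t.test function, named in the study's methods, was an alternative because the values are counts. The prior count of the log2FC was 0.125. Standard errors are the size of the log2FC divided by the square root of F. The floor was 3 counts in each library of a group. With fewer than 10 values a group, p-values come from the fit across all genes. They measure the spread between these cultures only. On simulated counts with 200 changed genes among 12456, edgeR recovered 192 and called 6 unchanged genes at an adjusted p under 0.05. In the real data, 38.7% of tested genes were lower and 40.9% higher by that measure. With so few changed genes, the simulation cannot show how the test or the scaling performs in such data.

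Members, classes and lists were chosen with earlier results of these data known. The genes named were the mitotic members, other called members, the member of kinesin-1, kinesin-2 and kinesin-3 with the highest mean CPM, members at the floor, and up to 3 called genes per direction of each partner list. The remaining members, and MAPRE1, CENPE, RACGAP1, BIRC5, INCENP, KLC4, KIFAP3, MAP7D1, DCTN5, NDEL1, DYNC1H1, TUBG1 and the markers, were named after their values were seen. The tubulin rows TUBA1B, TUBA4A, TUBB2B and TUBB3, were matched through the symbol column after the table was seen. Alternatives were other scalings and filters, DESeq2, the t.test function with log2(CPM + 1), a replicate block, other classes and each library left out. No library pair was a copy of another (chi-square per degree of freedom 5.17 to 19.2). Same-numbered libraries correlated at 0.09, 0.03 and -0.08 in their deviations from the group means, so the numbers were not taken as pairs. Promoter motifs were not analysed here, and some marker genes are not reported here. The software was edgeR 4.0.16 and DESeq2 1.42.0 under R 4.3.3, with figures in matplotlib 3.10.9 under Python 3.11.15.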

Additional observations from a re-analysis of the deposited data

How the results depend on the processing

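The 12 mitotic kinesins were called lower and 0 higher under every alternative that kept the class and the thresholds, other than library size only, where KIF23 was not called, and the shares rest on 3 cultures per group. Scaling by library size only moved the median log2FC of all genes from 0.04 to 0.52 (upper quartile, 0.11) and the share of calls that were higher from 44.3% to 69.7%, and kinesin calls from 15 lower and 5 higher to 13 and 11. With it, the class medians were -4.55 (mitotic), 0.86 (transport) and 0.36 (other, a turned sign), 7 transport kinesins were higher, 1 other kinesin was lower, and KIF16B (0.16), KIF17 (0.42), KIF1B (0.26), KIF27 (0.36) and KIF9 (0.14) turned sign. KIF3C (1.32), KIFC2 (1.31), KIFC3 (1.23), KIF13A (1.08), KIF13B (1.06) and KIF21A (1.03) then exceeded a log2FC of 1. KIF17 also turned sign with the upper quartile (0.0165) and ranged from -0.14 to 0.0053 with 1 library left out, above 0 without Control 1. R's t.test function gave a mitotic median of -3.50 and 0 transport kinesins lower. An adjusted p alone called 6 transport kinesins lower and 8 higher. Without a filter, the transport and other medians were 0.57 and -0.24, and with a CPM of at least 1 in 3 libraries the other median was -0.33. With KIF2A and KIF24 counted as mitotic and KIF21A and KIF21B as transport, the medians were -4.63 and 0.55 and the mitotic shares 26.3% and 6.33% (control and ATRA). Without the member with the most counts of each class, the shares were 25.4% and 1.51%. With alternatives chosen after seeing the data, the mitotic class by GO terms had 11 of 14 tested members called lower and a median of -4.45, and without LOC rows 1 transport kinesin was higher and the median was 0.16. The replicate block gave 12 mitotic kinesins lower and a median of -5.03, with 1 transport kinesin lower and 2 higher, and changed no kinesin call. Over 14 alternatives, 481 of 502 single-gene values kept their direction and call.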
